A study of Drosophila melanogaster with 120 samples.

Results

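The genes described here make the visual pigment of the fly eye or take up the carotenoid from which its chromophore is made. They are 10 named genes, the opsin genes ninaE and Rh2 to Rh6 together with ninaD, santa-maria, ninaB and ninaG. A gene was followed through the probe sets that the annotation of the array lists for that gene alone. Of the 10 genes, 4 had 1 such probe set each, out of 13,647 probe sets annotated to a single gene: ninaD (CG31783) and santa-maria (CG12789) on chromosome arm 2L, and ninaB (CG9347) and ninaG (CG6728) on 3R. The 6 opsin genes had no probe set listed for them in the annotation used here and were not analysed here, so all values below belong to the carotenoid and chromophore genes.

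Rhodopsin is an opsin bound to a chromophore derived from vitamin A, which flies make from dietary carotenoids. ninaD encodes a scavenger receptor of class B, a membrane protein known for the uptake of carotenoids from food in the midgut, and santa-maria encodes a related receptor that acts in neurons and glia of the head. ninaB encodes the enzyme that cleaves carotenoids to retinal, and ninaG an oxidoreductase needed to form the hydroxylated chromophore found in flies.

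Whole adult flies of Drosophila melanogaster were measured on 120 Affymetrix arrays. From each of 15 hemiclonal lines, sampled from the outbred LHM population, came 4 samples of 6 males and 4 samples of 6 females, all collected independently. Within a line all flies carried the same haplotype, apart from the dot chromosome, over a partner genome that came from LHM and varied from fly to fly. Males were born to double-X mothers and carried no X chromosome other than that of the line, whereas females also had an X from LHM. All flies were taken on Day 14, 4 days into adult life, after 24 h from Day 12 with LHM testers of the opposite sex and 20 h without them, and no group received a further treatment. The lines bear labels beginning with H (6 lines) or P (9 lines), and the labels do not say which fitness class a line belongs to. Expression values were on the log2 scale.

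The array median lay between 6.28 and 6.45 in males and between 5.69 and 5.82 in females, a shift of 0.64 that moved with sex in all comparisons below. Across transcripts, the median correlation between replicate arrays was 0.996 (180 pairs). The 6 measured ovary markers were higher in females, with mean differences of up to 8.88, and the 8 male reproductive tract markers higher in males. The batch of each array is not given in the sources used here, and its part in any result was not tested.

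Males and females were first compared over the 15 lines. Transcripts of ninaD, santa-maria and ninaB were more abundant in males in 15 of 15 lines, and ninaG did not pass the test on the deposited scale, although it did, in opposite directions, on the centred scales given below. ninaD had by far the widest difference, close to 4 on the log2 scale. The 3 genes that passed the test for sex (an F test against the sex-by-line variance, FDR 0.001) compare with 91.4% of 18,769 transcripts that passed it in either direction 30.5% being higher in males and 60.9% higher in females. Centring each array on its own median left 21.2% higher in males and 73.6% higher in females, and centring on the ribosomal protein transcripts gave 69.5% and 22.4%. In whole flies, fewer cells of a type and less RNA per cell cannot be told apart.

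**Figure D1:**
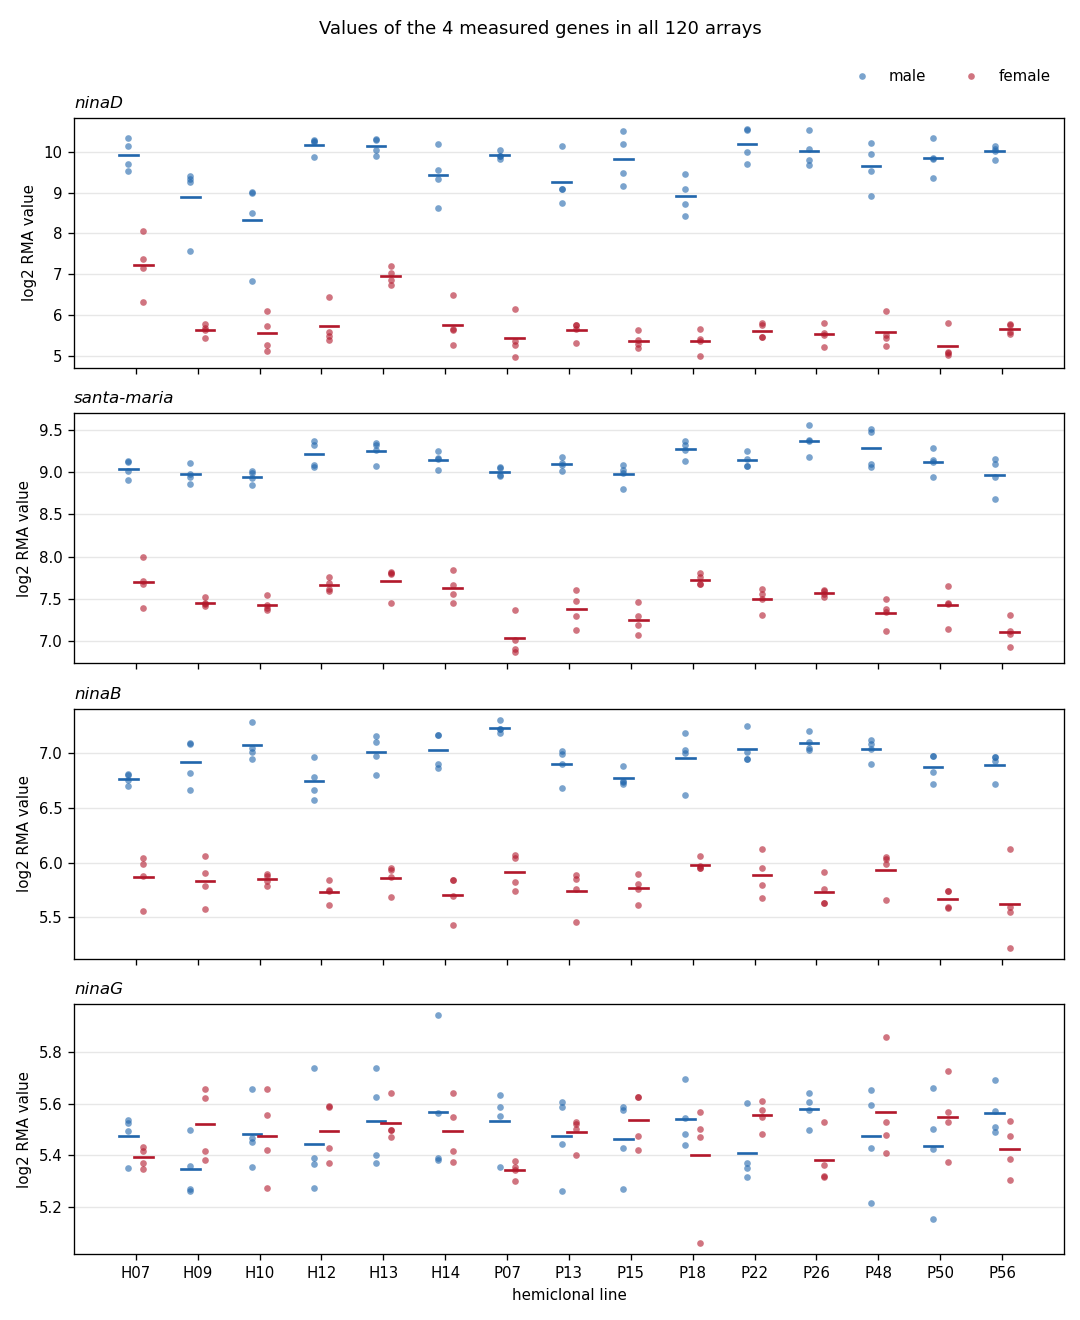
Each point is the log2 RMA value of 1 array, with males in blue and females in red, for each of the 15 lines on the x axis, and each bar is the mean of 4 arrays. The sexes are separate in santa-maria and ninaB, overlap in ninaG, and in ninaD the female means of H07 and H13 lie above those of the other 13 lines, with 2 single arrays of the other lines above the lowest array of the pair.

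ninaD, the carotenoid receptor of the midgut, had values from 6.83 to 10.55 in the 60 male arrays, around a median of 9.82, while the 60 female arrays ran from 4.97 to 8.05 around a median of 5.60. The sexes overlapped at the edges, with 2 male arrays below the highest female array and 6 female arrays above the lowest male array. The mean over lines was 9.63 ± 0.56 for males (± SD over 15 line means) and 5.75 ± 0.57 for females. Males exceeded females by 3.89 (SE 0.17, 95% interval 3.51 to 4.26), or 14.8-fold, with an adjusted p of 5.39e-12 in the mixed model. Of all transcripts, 5.72% had a larger male excess. Within single lines the difference ran from 2.70 in H07, which is 6.50-fold, to 4.61 in P50, with a median of 4.08. Line P50 had the lowest ninaD mean among females, with 5.09, 5.06, 5.79 and 5.01 in its 4 arrays, whereas its males were in the middle of the order at 9.85, 9.36, 10.35 and 9.82. Whether the low female values were above the background of the array is not known, because no detection calls were used here.

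santa-maria, the receptor of the head, was higher in every male array than in any female array. Its values ran from 8.68 to 9.56 for males (median 9.09) and from 6.87 to 7.996 for females (median 7.47). A gap of 0.69 separated the lowest male array from the highest female array. Such a complete separation with males above was found in 18.5% of all transcripts. Males averaged 9.12 ± 0.13 and females 7.46 ± 0.21, and the male excess was 1.66 (SE 0.05, 95% interval 1.56 to 1.75), or 3.15-fold, with an adjusted p of 1.09e-14 in the mixed model. The difference was smallest in H07 (1.34) and largest in P07 (1.96), the line with the lowest santa-maria values in females.

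ninaB, the carotenoid cleavage enzyme, was also separate in the sexes, by a gap of 0.44 between the nearest arrays. Male values were 6.57 to 7.30 (median 6.97) and female values 5.23 to 6.13 (median 5.83). As for ninaD, it is not known whether the female values were above the background of the array. Males averaged 6.95 ± 0.14 and females 5.81 ± 0.11, and the difference of 1.15 (SE 0.04, 95% interval 1.07 to 1.222), or 2.21-fold, had an adjusted p of 4.77e-14. Among lines it ran from 0.90 in H07 to 1.36 in P26. Line H07 thus had the smallest male excess of the 15 lines in each of ninaD, santa-maria and ninaB.

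ninaG, the oxidoreductase of chromophore synthesis, did not pass the test for sex. Its values ran from 5.15 to 5.94 for males (median 5.50) and from 5.06 to 5.86 for females (median 5.48), and 59 of the 60 male arrays were below the highest female array. Whether such low values were above the background of the array is not known, in either sex. The means were 5.49 ± 0.07 and 5.48 ± 0.07, a difference of 0.01 (SE 0.03, 95% interval -0.06 to 0.08, adjusted p = 0.722), and males were higher in 8 of 15 lines. Because the array medians of the sexes differ, this result depends on the reference. With each array centred on its median, ninaG was 0.62 lower in males (adjusted p = 3.04e-11, male minus female -0.62), and with arrays centred on the ribosomal protein transcripts it was 0.70 higher in males (adjusted p = 4.68e-12). The other 3 genes kept the male excess on these scales. After centring on the array median it was 3.25 for ninaD, 1.02 for santa-maria and 0.51 for ninaB, and after centring on the ribosomal protein transcripts 4.57, 2.34 and 1.83.

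The sex differences of the 4 genes were then compared with each other within lines. ninaD exceeded santa-maria by 2.23 (SE 0.15, 95% interval 1.92 to 2.54), ninaB by 2.74 (SE 0.17) and ninaG by 3.87 (SE 0.18). santa-maria exceeded ninaB by 0.51 (SE 0.04, 95% interval 0.42 to 0.60) and ninaG by 1.64 (SE 0.05), and ninaB exceeded ninaG by 1.13 (SE 0.04). All 6 pairs had the same order in 15 of 15 lines, and each had p = 6.1e-05 in a two-sided exact sign-flip permutation test over lines, the smallest that 15 lines can give, with the same value after adjustment over the 6 pairs. These contrasts are unaffected by any shift common to an array. Those with ninaG rest on a probe set of low values whose detection is not known.

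**Figure D2:**
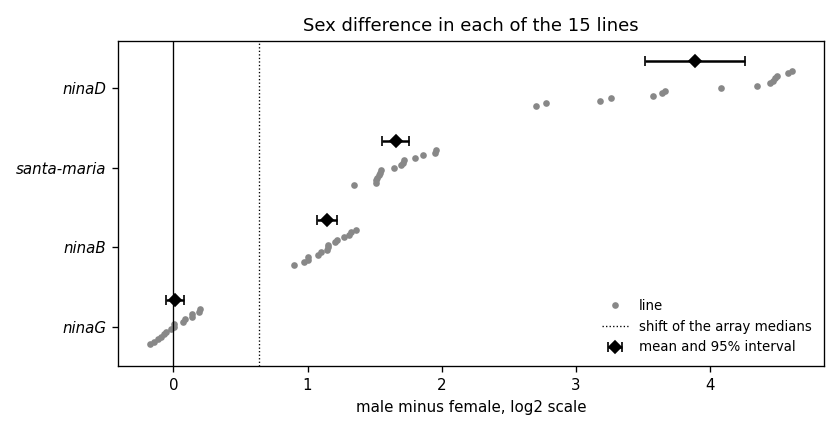
Grey points are the male minus female difference of each of the 15 lines on the log2 scale, black diamonds the mean with its 95% interval, and the dotted line the shift of 0.64 between the array medians of the sexes. The intervals of the 4 genes do not overlap, and only ninaG lies around 0, below the dotted line.

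Genes of the photoreceptor cascade, which act in the eye that uses the chromophore, served as another reference. Of the 17 measured genes of the phototransduction list (21 named), 16 had a male excess and 1 a female excess, with a median difference of 1.74. They included rtp, which encodes the retinophilin of the rhabdomere, at 2.20, and Galphaq, the G protein subunit that couples rhodopsin to its effector, at 2.12, although another of its 3 probe sets went the other way at -0.18 without passing the test. For 3 genes of the list, inaE, rdgA and rdgB, other probe sets passed in the opposite direction (4 of the 5 of inaE, from -1.34 to -0.39, and 1 each of rdgA at -0.66 and rdgB at -1.14), and among the other 14 genes the split was 13 and 1 (median 1.89). Gprk1, a kinase of G protein-coupled receptors, was the exception at -1.19. Median centring left 14 with male excess and 2 with female excess. Measured against the mean of this list in each array, ninaD was still higher in males by 2.41 (SE 0.16, 95% interval 2.06 to 2.76, adjusted p = 6.46e-10) in 15 of 15 lines, and santa-maria by 0.18 (95% interval 0.11 to 0.25, adjusted p = 6.87e-05), also in 15 lines. On the same scale ninaB was lower in males in 15 of 15 lines, by a male minus female difference of -0.33 (95% interval -0.38 to -0.28, adjusted p = 2.49e-09), and ninaG lower at -1.46 (adjusted p = 4.56e-16). Of all transcripts, 13.1% were higher and 82.9% lower in males on this scale. The list had a mean difference of 1.47 with Gprk1 included. The difference of santa-maria, 1.66, was thus above the list mean but below the list median of 1.74. The sign for ninaB depended on the reference list, since against the mean of 6 genes listed for photoreceptor structure it was 1.00 higher in males. That list had a mean difference of 0.14. Beside chp (1.96) it holds crb (-1.45) and Patj (-0.99), which are not particular to the eye. On that reference ninaD was 3.74 and santa-maria 1.51 higher in males, and ninaG was at -0.13 (adjusted p = 5.09e-04).

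The other steps of visual pigment turnover were mixed. Of 8 genes named for visual pigment maturation and the retinoid cycle, 5 were measured. The opsin gene Rh7 was lower in males by its brighter probe set (-0.56) and higher by the other (1.44), so that no direction is given for it. Of the other 4 genes, 3 were higher in males and 1 did not pass, with a median difference of 1.06. Pdh, a retinol dehydrogenase of the retinal pigment cells, was at 11.82 in males against 9.13 in females, a difference of 2.68, and rdhB, another retinol dehydrogenase, differed by 1.94. With Rh7 counted by its brighter probe set, 3 of 5 were higher in males and 1 in females (median 0.19), and median centring gave a split of 2 and 3. Among 12 measured regulators of opsin genes or of eye development, 9 had a male excess and 2 a female excess (median 0.77), with the largest male excess in the transcription factors so (2.22) and pros (1.65), with wts, a kinase of the Hippo pathway, lowest at -0.52. After median centring the split was 6 and 5. On the deposited scale without dve, which had a probe set of opposite sign, it was 8 and 2 (median 0.57).

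Photoreceptor structure and eye pigment genes did not move one way. Of 6 structure genes, 3 were higher in males, led by chp (chaoptin, of the photoreceptor membrane) at 1.96 and eys at 0.86 (its 3 dimmer probe sets were lower in males), and 2 in females, crb at -1.45 and Patj at -0.99, with a median of 0.24. Both crb and Patj encode parts of the apical complex of epithelia throughout the body. Of 7 measured eye pigment genes, 3 were higher in males, with st at 1.12 and ry at 1.04 the largest, and 3 in females, with pr at -0.70 and cn at -0.20 (median 0.03). Probe sets of eys, sdt and bw also passed in the opposite direction, and without eys and sdt the structure genes split 1 and 2 (median -0.51). Median centring changed the splits of all measured genes to 1 and 4 for the structure genes and to 3 and 4 for the pigment genes.

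Scavenger receptors of class B other than ninaD and santa-maria numbered 11 measured of 12 named. In this family 7 had a male excess and 4 a female excess, with a median of 0.94, and after median centring 6 and 5. Without CG3829, which had a probe set of opposite sign, the split on the deposited scale was 6 and 4 (median 0.57). The largest male excess was in emp (2.37) and CG10345 (1.98), both below the 3.89 of ninaD. The largest female excess was in pes, at 7.97 in males and 10.56 in females (-2.58), followed by CG40006 (-0.40).

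**Figure D3:**
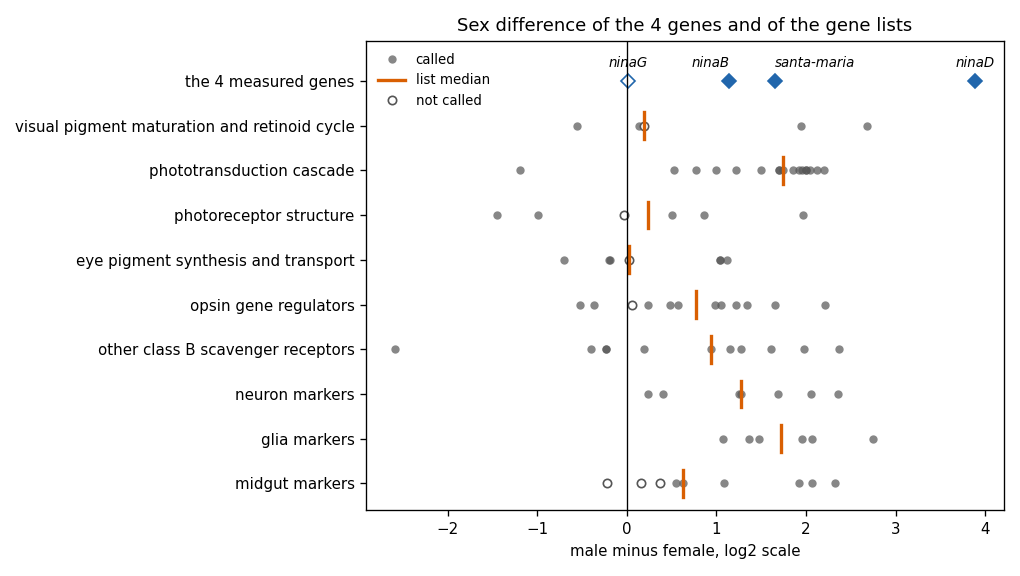
Each point is the male minus female difference of 1 gene on the log2 scale, filled where the test for sex was passed and open where it was not, in the lists named on the left. Orange bars are the list medians, and the blue diamonds of the 4 genes run from ninaG near 0 to ninaD at 3.89, to the right of all genes of these lists.

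Variation among the lines was examined next, within each sex and over both. ninaD and santa-maria varied among lines in males and in females, ninaB and ninaG passed none of these tests, and for sex by line the gene that passed was ninaD. Whether these shares differ between the genes was not tested, and several of the calls changed with the fit, as given for each gene and in the account of the alternatives. In males 2 of the 4 genes passed the test for line against 27.3% of all transcripts, and in females 2 of 4 against 8.36%. For sex by line it was 1 of 4 against 9.87%. The line term over both sexes was passed by 0 of the 4 genes at FDR 0.001 in the mixed model and by 0.282% of all transcripts, while at an unadjusted p under 0.05 it was 1 gene, santa-maria, and limma, which sets lines against the spread of arrays alone, passed ninaD and santa-maria.

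In females, 67.5% of the variance of ninaD lay among lines (adjusted p = 2.10e-07), with the highest means in a pair of lines. The 4 female arrays of H07 read 7.38, 6.32, 8.05 and 7.15, with a mean of 7.22, and those of H13 read 6.86, 7.03, 7.19 and 6.73, with a mean of 6.95. The means of the other 13 lines lay between 5.24 and 5.76, and of their 52 arrays only 2, with a highest value of 6.48, exceeded the lowest of H07 and H13. The step from the next line, H14, up to H13 was 1.20, against an SD of 0.37 between replicate arrays, and at no other step in the order of female lines were neighbours further apart than that SD. H07 and H13 were on average 1.55 above the other females. Without H07 alone the share of variance among female lines was 55.2% and the test was still passed (adjusted p = 1.01e-04). Without these 2 lines, a choice made after their values were seen, the share was 0 and the test was not passed (adjusted p = 1.00). Leaving out lines picked for their high values lowers the share in any case, so no conclusion is drawn from it. In males the same lines were 6th (H07, 9.92) and 3rd (H13, 10.14) from the top.

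Among males, ninaD had 45.8% of its variance among lines (adjusted p = 3.77e-04). H10 was lowest, with arrays at 8.98, 8.49, 6.83 and 9.002 and a mean of 8.33, and P22 highest, with arrays at 10.003, 10.55, 10.53 and 9.70 and a mean of 10.20. The low H10 mean owed part of its distance to replicate 3, without which it was 8.82. H10 and H09 were 0.56 apart, more than the SD of 0.53 between replicate arrays, and the other neighbours were closer together than that. Leaving out H10 lowered the share to 37.3% and the test was no longer passed (adjusted p = 0.00491), and leaving out H12 (0.00106) or P18 (0.00122) had the same effect on the call. The sex-by-line share of ninaD was 36.9% (adjusted p = 1.62e-04), and without H07 it was 34.2% (adjusted p = 0.00187). Each of these calls except the one in females was also lost when any replicate number was left out of all groups.

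santa-maria varied among lines over a smaller range. Female line means ran from 7.04 in P07, with arrays at 6.91, 7.02, 7.37 and 6.87, to 7.73 in P18, with arrays at 7.81, 7.67, 7.75 and 7.67, and the share among lines was 61.3% (adjusted p = 4.37e-06). The arrays of these end lines did not overlap, but no neighbouring lines were further apart than the SD of 0.16 between replicates. Without replicate number 1, 2 or 4 of all groups the adjusted p was 0.00273, 0.001004 and 0.00145, so that the call was lost. Male means ran from 8.94 in H10 to 9.37 in P26, with a share of 43.9% (adjusted p = 6.44e-04) and a replicate SD of 0.13. The call in males was lost without any 1 of H09, H10, H13, P07, P15, P18 and P26, with adjusted p-values up to 0.00519. It was also lost without any replicate number, with adjusted p-values from 0.00173 to 0.0476. Its sex-by-line share of 22.2% did not pass (adjusted p = 0.00710). The female lines H13 and H07, high in ninaD, were 2nd and 3rd from the top in santa-maria, at 7.72 and 7.69.

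ninaB and ninaG did not pass the test for line in either sex. Male line means of ninaB ran from 6.74 in H12 to 7.23 in P07, with 39.9% of the variance among lines (adjusted p = 0.00181), which missed the threshold but passed it without H09 (8.08e-04) or P18 (4.50e-04) and with arrays centred on the ribosomal protein transcripts (7.93e-04), midgut markers (1.60e-04) or glia markers (3.92e-06), and female means from 5.62 in P56 to 5.98 in P18 (9.52%, adjusted p = 0.429). P07 males read 7.22, 7.18, 7.22 and 7.30, and H12 males 6.57, 6.66, 6.96 and 6.78, without overlap. ninaG line means stayed between 5.35 and 5.58 in males and between 5.34 and 5.57 in females, with estimated shares among lines of 0 and 6.88%. The neighbouring lines of these genes were never further apart than the SD between replicates.

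Line means of a gene in males were then set against those in females. Over the lines (n = 15), Pearson's r between the sexes was 0.28 for ninaD (permutation p = 0.315, Spearman's rho 0.29, p = 0.295) and 0.03 without the 2 lines farthest from the median. It was 0.55 for santa-maria (permutation p = 0.0327, rho 0.52, p = 0.0505, r = 0.43 without 2 lines). For ninaB it was 0.37 (permutation p = 0.177, rho 0.35, p = 0.197, r = 0.31 without 2 lines), and for ninaG it was -0.57 (permutation p = 0.0247, rho -0.62, p = 0.0154, r = -0.47 without 2 lines). Between ninaD and santa-maria r was 0.48 in females (permutation p = 0.0614, rho 0.38, p = 0.164, r = 0.16 without 2 lines) and 0.30 in males (permutation p = 0.276, rho 0.33, p = 0.231, r = -0.12 without 2 lines). Of the 16 relations computed among the 4 genes, none passed after adjustment, with smallest adjusted p-values of 0.261 for r and 0.247 for rho.

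Markers of the organs in which the receptors act were also examined, and are given here as descriptions. The 9 measured midgut markers (10 named) averaged 12.05 to 12.93 in male arrays and 10.92 to 12.41 in female arrays. On the deposited scale 6 of the 9 were higher in males and none in females, with a median difference of 0.63. The array medians were shifted by 0.64, which is not an offset of every transcript, since 60.9% were higher in females. After median centring 4 of the midgut markers were higher in males and 2 in females. They are digestive enzymes and a gut protein, with mean values from 8.56 (mex1 in females) to 14.30 (alphaTry in males). The 6 measured glia markers (7 named), which averaged 8.62 to 9.37 in males and 6.84 to 7.88 in females, were all higher in males (median 1.72), also after median centring. All 7 measured neuron markers were higher in males by their brightest probe set (median 1.27), and after median centring 5 were higher in males and 2 in females. Probe sets of brp and cac among them also passed in the opposite direction. Centring arrays on the midgut markers, a choice made after seeing the data, left ninaD 2.90 higher in males (adjusted p = 4.49e-11) and santa-maria 0.67 higher, but ninaB only 0.16 (adjusted p = 0.00680) and ninaG at -0.98. Centring on the glia markers left ninaD 2.11 higher in males (adjusted p = 1.66e-09), whereas santa-maria was at -0.12 (adjusted p = 0.00144), ninaB at -0.63 and ninaG at -1.77.

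Among arrays of the same line and sex, deviations of ninaD from the group mean followed those of the midgut marker mean, with r = 0.63 over 60 male arrays (rho 0.57, and 0.51 without the 2 farthest arrays) and r = 0.33 over 60 female arrays (rho 0.25, and 0.40 without them). Of the 9 markers, 7 had a positive r in males, between -0.36 for mex1 and 0.79 for LManV, and all 9 in females. Without LManV the values were 0.45 and 0.29. The array with the lowest male value of ninaD, H10 replicate 3 at 6.83, also had the lowest midgut marker mean of the male arrays (12.05). H07 had the highest midgut marker mean of the 15 lines in females (11.97) as well as in males (12.83), and H13 was 5th in females (11.64). In the glia marker mean, H07 was also highest among females (7.53), but 13th among males (8.95). Over female line means, r of ninaD was 0.48 with the midgut markers and 0.69 with the list of visual pigment maturation and the retinoid cycle. In males these values were 0.46 and 0.37. None of these values of r was computed without H07 and H13. In females, 79.1% of the variance of pinta, a gene of the maturation list, lay among lines, against 0 to 16.3% for its other genes. H13 and H07 were also high in pinta (8.22 and 7.95 in females). With arrays centred on the midgut markers, the share of ninaD variance among female lines was 59.98% (adjusted p = 2.89e-05). The part of gut content in these differences was not tested.

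**Figure D4:**
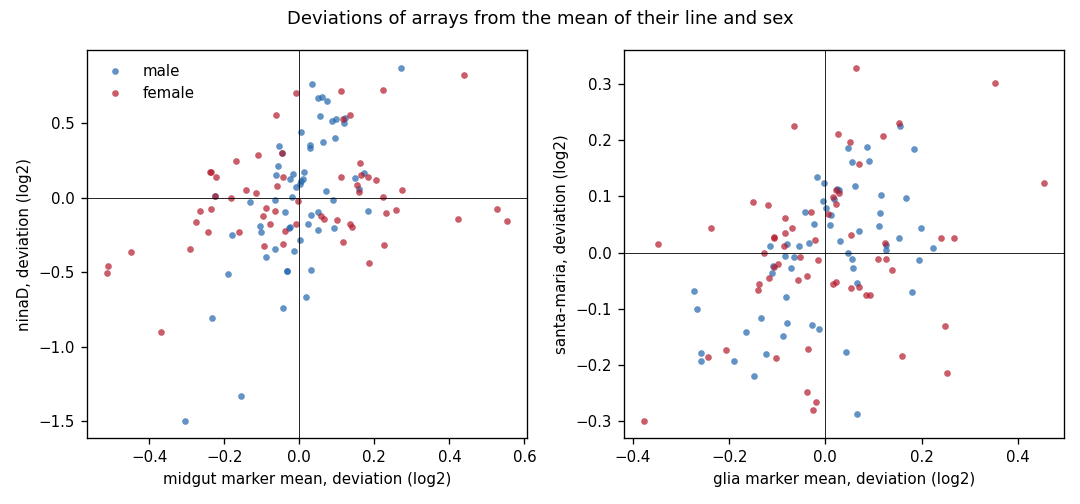
Each point is 1 array, with males in blue and females in red, placed by its deviation from the mean of its line and sex on the log2 scale, for ninaD against the mean of 9 midgut markers on the left and for santa-maria against the mean of 6 glia markers on the right. Arrays low in midgut markers tend to be low in ninaD (r = 0.63 in males, 0.33 in females), and the same holds for santa-maria and glia markers (0.54 and 0.28). The points are not independent, because deviations shared by arrays of the same replicate number were not removed.

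For santa-maria the corresponding r with the glia marker mean was 0.54 in males (rho 0.53, and 0.54 without the 2 farthest arrays) and 0.28 in females (rho 0.20, and 0.18 without them), with a positive r for 6 of 6 markers in each sex. ninaB followed the glia markers as well, at r = 0.60 in males (rho 0.60) and 0.43 in females (rho 0.30). Other lists gave similar values in part. With the visual pigment maturation list, r was 0.55 in males and 0.25 in females for santa-maria, and 0.52 and 0.40 for ninaB. With the phototransduction list it was -0.11 and 0.25 for santa-maria, and -0.003 and 0.47 for ninaB. With the neuron markers it was -0.22 and 0.30 for santa-maria, and -0.33 and 0.23 for ninaB. In males r with the midgut marker mean was 0.03 for santa-maria and -0.07 for ninaB. In females it was 0.28 for santa-maria (0.32 without the 2 farthest arrays) and 0.26 for ninaB, so that for santa-maria the midgut and glia values were alike. Centred on the glia markers, santa-maria no longer passed the test for line in females (29.3%, adjusted p = 0.0266) or in males (37.5%, adjusted p = 0.00420). Points within a sex share a normalization, and lines supply 4 arrays each. Deviations were taken from the mean of line and sex alone. Any part shared by arrays of the same replicate number thus remained in r, here and for ninaD above, so the points are not independent.

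The genes whose line means ran most like those of each of the 4 genes were found by Pearson's r over 30 line means, centred within each sex, as a description. For ninaD they were LManVI (r = 0.77), Gal (0.67) and LManV (0.66), all on arm 2L, which encode alpha-mannosidases of lysosomal type and a beta-galactosidase. All 3 were higher in males, by 2.29, 2.30 and 2.07, and their array deviations followed ninaD at r = 0.74, 0.72 and 0.79 in males and 0.45, 0.51 and 0.40 in females. For santa-maria they were the ABC transporter genes CG10226 (0.77) and Mdr65 (0.73), next to each other on arm 3L, and Gp150 (0.70), and Mdr65, known from the glia of the blood-brain barrier, is also one of the glia markers above. For ninaB they were lncRNA:CR43314 (0.67), at a level of only 3.65 in males and 4.00 in females, Hmgs (0.64), which encodes a synthase of the mevalonate pathway, and rumpel (0.63), a transporter gene expressed in glia. For ninaG, whose lines did not differ by the test, they were kri (0.66), RpL24-like (0.66) and eEF1gamma (0.64), all higher in females.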

How the data were processed

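Total RNA of whole flies, labelled with biotin, was hybridised to Affymetrix Drosophila Genome 2.0 arrays. The deposited values are log2 expression values, which the authors computed with RMA in the affy package (versions not given in the sources used here), which includes background correction, quantile normalization and summary per probe set. They were used as deposited. Tests covered 18,769 probe sets (transcripts), that is all 18,952 except 183 controls. The annotation of the array lists 1 gene for 13,647, several for 402 and none for 4,720, and symbols were updated by Entrez ID for 13,544. No genome coordinates or sequences were used.

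Each transcript was fitted by a mixed model with sex fixed and line and sex by line random. The test for sex was an F test with 14 denominator degrees of freedom. Each variance, also that of line within a sex, was given a restricted likelihood ratio test against a mixture of chi-square distributions, with Benjamini-Hochberg adjustment over all transcripts and an FDR of 0.001. For the 4 genes, the p-values of line and of sex by line in the model of both sexes were checked against lme4. Calls for sex, sex by line and line in males were tested on simulated data. The batch term of the study was left out because the batch of each array is not given in the sources used here. Precision is limited by the number of arrays, 4 for each line and sex.

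The genes and the 11 lists (111 genes) were chosen with earlier results of these data known. Named were all measured members, up to 2 genes of each list with the largest differences in each direction that passed the test for sex, and for each member the 3 genes of most similar line means. The genes pinta and Rh7, probe sets of opposite sign and the markers LManV and mex1 as single genes were added where a count or a result turned on them. Of several probe sets of a gene, the brightest is given. Lists were not tested as sets. Correlations used 100,000 permutations. Replicate numbers were not treated as pairing samples. Alternatives were other centrings, limma, an FDR of 0.05, dim transcripts (mean under 5 in each sex) left out, a replicate block, and each replicate or line left out. Software was limma 3.58.1 and lme4 1.1.37 in R 4.3.3, and scipy 1.17.1, pandas 2.3.3, matplotlib 3.10.9 and numpy 2.4.6 in Python 3.11.15.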

Additional observations from a re-analysis of the deposited data

Results flagged for a closer look

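Among 120 groups of 4 arrays of the 4 genes, 8 held 1 array far from the other 3 by Dixon's criterion, where chance alone flags about 5% of groups. In ninaD they were H09 male replicate 3 at 7.56 (others 9.27 to 9.40), H12 male replicate 4 at 9.88 (others 10.23 to 10.28) and P50 female replicate 3 at 5.79 (others 5.01 to 5.09). In santa-maria it was H13 female replicate 1 at 7.45 (others 7.79 to 7.82). In ninaB they were P15 male replicate 4 at 6.88 (others 6.72 to 6.74), P56 male replicate 1 at 6.71 (others 6.93 to 6.96) and P18 female replicate 2 at 6.06 (others 5.95 to 5.97). In ninaG it was H13 female replicate 4 at 5.64 (others 5.47 to 5.50).

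The sex difference of ninaD also stood out because it varied among lines, with a sex-by-line share of 36.9% (adjusted p = 1.62e-04 in the mixed model) and differences from 2.70 in H07 to 4.61 in P50.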

How the results depend on the processing

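The sex term kept its direction and call for ninaD in all 30 alternatives, and 3 or 4 members passed it in each. The sex difference of ninaG was -0.62 with arrays centred on their median, -1.46 on the phototransduction mean, -0.98 on midgut and -1.77 on glia markers, and it ranged from -0.014 to 0.034 without 1 replicate number and from -0.0017 to 0.025 without 1 line. That of ninaB was -0.33 on the phototransduction mean and -0.63 on glia markers, that of santa-maria -0.12 on glia markers, and that of ninaB relative to photoreceptor structure genes 1.00. The causes were not tested.

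For sex by line, 1852 transcripts and 1 member passed. This became 3194 and 0 with ribosomal protein centring, 4762 and 2 at an FDR of 0.05, 860 to 1018 and 0 without 1 replicate number, 1479 to 1923 and 0 to 1 without 1 line, and 0 members without H07 and H13 or on glia markers. The replicate block gave 2 members, adding santa-maria (26.1%, adjusted p = 8.13e-04), and added ninaB for line in males (43.6%, adjusted p = 7.00e-04). Arrays of the same number deviated together little between the sexes of a line (median r 0.05 over 60 pairs, 19 above 0.1), but somewhat more between lines of the same sex (0.10 over 840 pairs, against -0.04 over 2520 pairs of different numbers). For line over both sexes, 53 transcripts became 679 at an FDR of 0.05, 17 to 39 without 1 replicate number, 26 to 43 without 1 line, 6 without H07 and H13, and 5137, with 2 members, in limma, which does not set line against sex by line. For line in males, 5124 became 8117 with ribosomal protein centring, 8901 at an FDR of 0.05 and 2413 to 3188 without 1 replicate number (4228 to 4980 without 1 line), and 2 members became 0 without 1 replicate number, 0 to 2 without 1 line, 0 without H07 and H13, and 1 on glia markers. For line in females, 1570 became 3496 at an FDR of 0.05 and 659 to 904 without 1 replicate number (1334 to 1674 without 1 line), and 2 members became 1 to 2 without 1 replicate number and 1 without H07 and H13, on midgut or on glia markers. Leaving out a replicate number leaves 3 arrays for each line and sex in the fit. Alternatives without H07 and H13 and on midgut or glia markers were chosen after seeing the data.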

Other observations

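pinta, which encodes a retinoid-binding protein of the retinal pigment cells, was singled out after its values were seen. It did not pass the test for sex on the deposited scale (7.91 in males, 7.73 in females, adjusted p = 0.0865), whereas the male minus female difference was -0.45 with arrays centred on their median (adjusted p = 4.75e-04) and 0.88 on the ribosomal protein transcripts (1.11e-07). Further, its sex difference varied among lines (sex-by-line share 58.9%, adjusted p = 2.02e-09), and 79.1% of its variance in females lay among lines (adjusted p = 9.64e-11). The female means of H13, H14, H10, H12 and H07 were 8.22, 8.19, 8.11, 8.05 and 7.95, and those of the other 10 lines ran from 7.39 to 7.69. These include H07 and H13, the lines of high female ninaD. In males H13 was 4th from the top (8.04) and H07 12th (7.73), and the share among male lines was 25.9% (adjusted p = 0.0343), short of the threshold.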
